A study of Homo sapiens with 12 samples.

Results

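The genes described here encode protease inhibitors of 4 kinds: SLPI, a whey acidic protein inhibitor, the serpins SERPINA1, SERPINB1, SERPINB6, SERPINB8 and SERPINB9, the metalloproteinase inhibitor TIMP1, and the cystatins CST3 and CST7. They were taken by gene symbol from the platform annotation, and 8 of the 9 listed genes were measured, out of 18417 named genes in all. SERPINB6 was named by no probe set in the annotation used here and was not analysed here. The genes were selected on their measured levels in the 4 lines, SLPI in particular for its level in SUDHL-1, so differences between lines are given as description, with no test. Their SP minus MP differences were known too when they were listed, and the tests of these are not independent evidence.

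The RNA came from 4 established human lines of ALCL, or anaplastic large cell lymphoma, a tumour of T cells, and all of them are known to carry the fusion of NPM1 with the receptor kinase ALK. From each line, grown to log phase and stained with a Hoechst dye, a side population (SP) with low retention of the dye and a main population (MP) that retained it were sorted. SUDHL-1 had 3 SP and 3 MP arrays, and DEL, Karpas299 and SUPM2 had 1 SP and 1 MP array each, 12 arrays in all. The labels tell of sorting in triplicate but name no separate cultures. The p-values within SUDHL-1 thus cover the spread between its arrays alone, which may be technical. Those over the 4 lines cover the spread between lines, with 1 SP minus MP difference per line. A lower level in a sorted population cannot be told apart from fewer expressing cells in it.

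Values are log2 signals, on which a difference of 1 is a 2-fold ratio. Signals of different genes come from different probes, so no gene's level is compared with another's, and a percentile only places a probe's signal on its array. SUDHL-1 arrays had medians of 5.25 to 5.37 over the named genes and the other arrays 5.76 to 5.80. Over all genes the median difference of SUDHL-1 minus the other lines was -0.33, while in the genes with the highest mean signal (the top 25%) it was 0.16. Any processing difference between SUDHL-1 and the other lines cannot be told apart from the line, so the line differences of the members, and the counts over the wider families, are also given after joint quantile normalization. Correlations over all genes were 0.965 to 0.986 between arrays of SUDHL-1, 0.855 to 0.908 between SUDHL-1 and the other lines, and 0.923 to 0.982 among the other lines. Of the ALCL and activated T-cell markers, 6 of 8 measured genes lay above the array median on every array of SUDHL-1, 6 on every array of DEL, 7 in Karpas299 and 8 in SUPM2. TNFRSF8, the CD30 antigen that defines ALCL, was 6.80 to 7.31 in SUDHL-1, 7.63 to 7.72 in SUPM2, 8.66 to 8.86 in DEL and 9.05 to 10.51 in Karpas299. PRF1 and PTPRC were also lowest in SUDHL-1, at 8.54 to 9.57 and 8.46 to 9.69. IL2RA was highest there, at 11.84 to 12.21 against 10.91 to 11.79 elsewhere. CD4 lay at 3.45 to 4.15 in SUDHL-1 and 4.22 to 5.39 in DEL, against 9.32 to 9.66 in the others. CD2 lay at 3.39 to 4.54 in SUDHL-1, DEL and Karpas299, against 8.96 to 9.42 in SUPM2. GZMB and BATF3 in SUDHL-1 overlapped other lines.

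Protease inhibitors block an enzyme by occupying or trapping its active site. Serpins do so with an exposed loop that the protease cleaves, after which the serpin changes shape and holds the enzyme in a covalent complex. SLPI and SERPINA1, or alpha-1-antitrypsin, are secreted and protect tissue from neutrophil elastase, while the clade B serpins act mainly inside cells, where SERPINB9 shields cytotoxic lymphocytes from their own granzyme B. TIMP1 binds matrix metalloproteinases, and cystatins block the cysteine cathepsins of the endosome and lysosome. ALCL cells commonly express granzyme B and perforin.

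Promoter windows of 7 of the 9 listed genes were found in the RefSeq table (build GRCh38.p14), each from 250 bases before to 50 after the start site. SLPI and CST7 had no window there. A pair is shown because the line means of these genes in SUDHL-1 lay on opposite sides, TIMP1 below and SERPINB1 above those of the other lines. The TIMP1 arrays of SUDHL-1 overlapped those of SUPM2. Capitals mark the 7-base AP-1 motif TGAGTNA in TIMP1 (chrX:47582186-47582485, plus strand) and the 9-base STAT motif TTCNNNGAA in SERPINB1 (chr6:2841814-2842113, minus strand), each searched on both strands and picked after the levels were seen.
TIMP1: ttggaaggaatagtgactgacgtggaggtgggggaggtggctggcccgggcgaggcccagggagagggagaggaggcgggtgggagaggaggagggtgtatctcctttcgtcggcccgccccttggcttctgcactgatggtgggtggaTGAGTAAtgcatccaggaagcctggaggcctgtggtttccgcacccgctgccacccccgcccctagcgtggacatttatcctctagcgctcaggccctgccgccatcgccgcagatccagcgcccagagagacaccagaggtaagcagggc
SERPINB1: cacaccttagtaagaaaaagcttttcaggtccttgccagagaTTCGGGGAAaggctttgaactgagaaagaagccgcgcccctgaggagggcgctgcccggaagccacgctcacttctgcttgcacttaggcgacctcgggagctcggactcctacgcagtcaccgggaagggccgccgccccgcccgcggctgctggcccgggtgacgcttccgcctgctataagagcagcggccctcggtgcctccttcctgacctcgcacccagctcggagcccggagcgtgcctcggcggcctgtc
The AP-1 match in TIMP1 began 101 bases before the start site, and the STAT match in SERPINB1 began 208 bases before it. The AP-1 letters were found in 12.8% and the STAT letters in 7.66% of 35116 windows of the same length. SERPINB8 was the one other member with a match, to both motifs. The windows of SERPINA1, SERPINB6, SERPINB9 and CST3 held neither run of letters.

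SLPI, the secreted inhibitor of neutrophil elastase and cathepsin G, had the widest spread of line means among the 8 members, 6.59 on the log2 scale. Its SP arrays read 4.28, 4.48 and 4.68 and its MP arrays 3.90, 4.15 and 4.04 in SUDHL-1. DEL gave 8.85 for SP and 10.18 for MP cells, Karpas299 gave 10.49 and 11.19, and SUPM2 gave 6.20 and 7.56. Every SUDHL-1 array lay below every array of the other lines, and the 4 lines did not overlap each other at all. Among the genes of its array, SLPI ranked at the 25.2nd to 36.8th percentile in SUDHL-1, at the 90.7th to 97.1st in DEL, at the 97.9th to 99.0th in Karpas299 and at the 57.8th to 79.1st in SUPM2.

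The line means of SLPI were 4.25 in SUDHL-1, 10.84 in Karpas299, 9.51 in DEL and 6.88 in SUPM2. SUDHL-1 minus the mean of the other 3 lines was -4.82. No detection calls were used, and whether the SLPI signal in SUDHL-1 lay above background was not tested, so this is a difference of signals and no measured fold of transcript. The difference was -6.59 against Karpas299, -5.26 against DEL and -2.62 against SUPM2. After joint quantile normalization the overall difference was -4.61, and relative to the median of all genes it was -4.50. As a description, 0.168% of all genes had a difference as low or lower. Among DEL, Karpas299 and SUPM2 alone the SLPI line means still spanned 3.96, a span reached by 0.434% of genes, and SLPI and SERPINB1 were the 2 members with a span of at least 1 and the highest and lowest line apart (17.1% of genes).

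**Figure D1:**
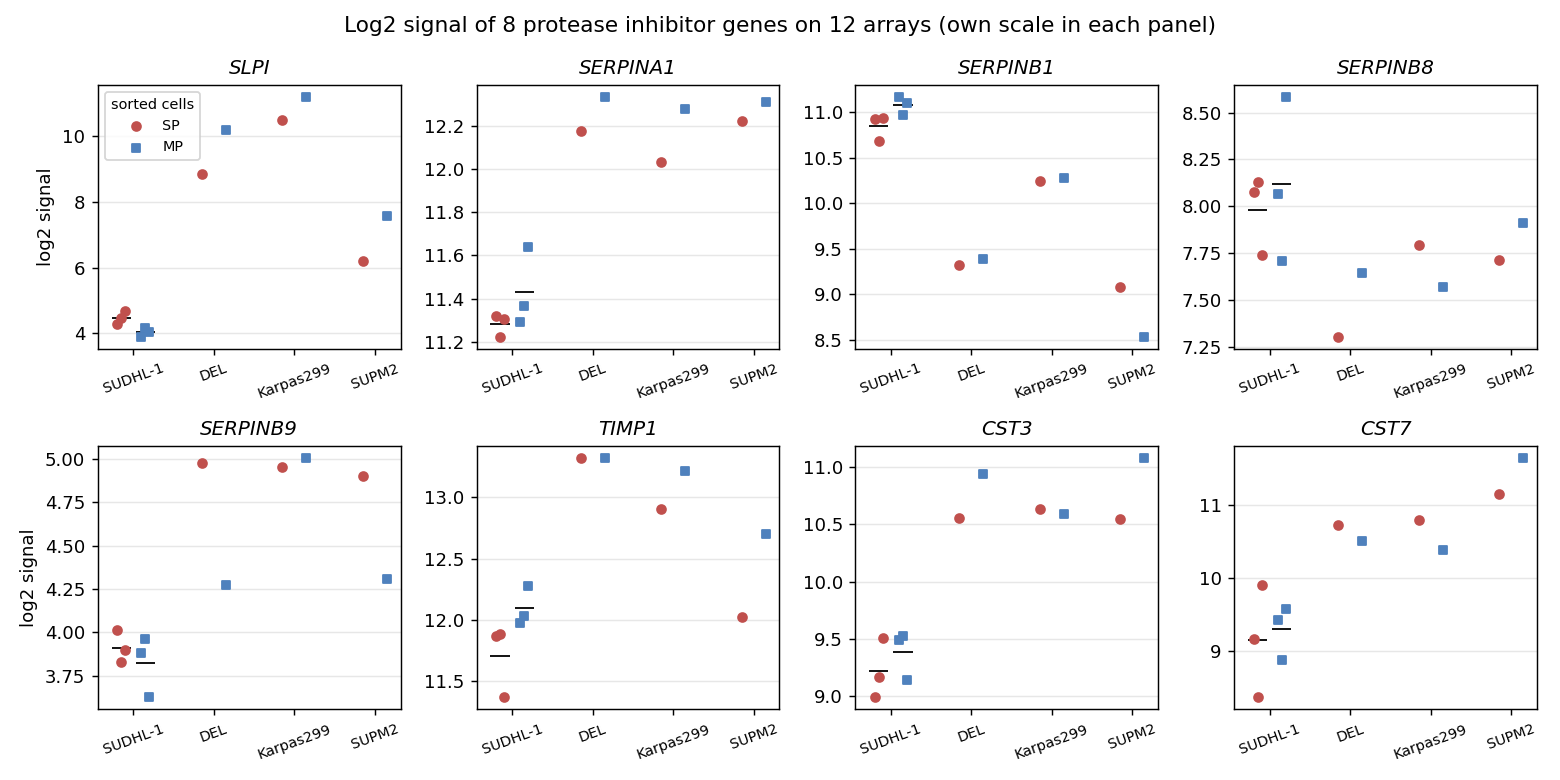
Log2 signal (vertical axis, own scale in each panel) of the 8 measured genes in the 4 cell lines, with SP arrays as red circles, MP arrays as blue squares and black bars for the means of 3 arrays in SUDHL-1. SLPI lies at 3.90 to 4.68 in SUDHL-1 and at 6.20 to 11.19 in the other lines, and SERPINB1 is the gene with all SUDHL-1 arrays on top.

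In the same contrast of SUDHL-1 with the mean of the other lines, 3 of the 8 members (SLPI, CST3 and CST7) lay at least 1 below the other lines in SUDHL-1 with no overlap of arrays, against 11.7% of all genes. SERPINB1 was the 1 member that lay at least 1 above them, against 5.14% of all genes. After quantile normalization the counts were again 3 lower (6.65% of all genes) and 1 higher (6.53%). With no limit of size, 5 members had all SUDHL-1 arrays below all others (29.1% of genes) and 1 had them above (7.51%). The choice of the list used this contrast, so nothing is read from these counts. CST3, at -1.42, lay inside this limit, TIMP1 reached -1.01 but its arrays overlapped those of SUPM2, and SERPINB9 and SERPINA1, both at -0.87, lay just outside. With each array centred on its median CST3 stood at -0.96 and left the count.

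**Figure D2:**
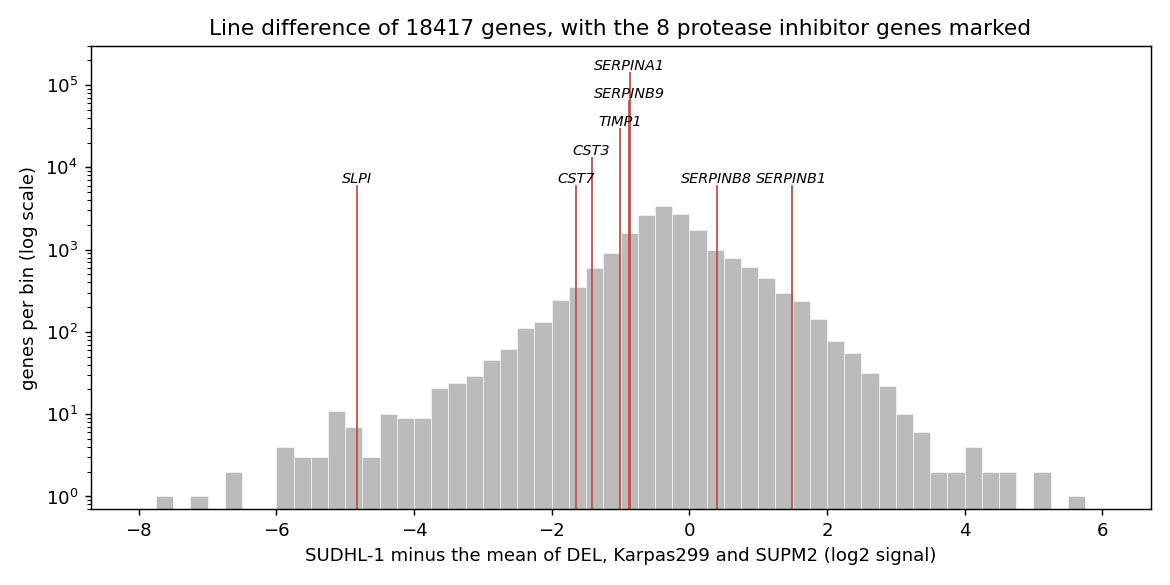
Histogram of SUDHL-1 minus the mean of DEL, Karpas299 and SUPM2 over 18417 genes (horizontal axis in log2 signal, vertical axis in genes per bin on a log scale), with red lines for the 8 members. SLPI at -4.82 lies in the lower tail, CST7, CST3, TIMP1, SERPINA1 and SERPINB9 lie between -1.65 and -0.87, and SERPINB8 and SERPINB1 lie above 0.

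Between SP and MP cells, the difference of SLPI had one sign in SUDHL-1 and the opposite sign in the other lines. In SUDHL-1 it averaged 4.48 ± 0.20 in SP cells and 4.03 ± 0.13 in MP cells (SD, n = 3 each), a difference of 0.45 with a standard error of 0.16 (limma unadjusted p = 0.0274, adjusted p = 1.00 over all genes). The SP arrays lay wholly above the MP arrays, as was the case for 3.74% of all genes. In DEL, Karpas299 and SUPM2 SP minus MP was -1.34, -0.71 and -1.36, with the SP array below the MP array each time. A difference of -1 or lower was found for 1.37% of genes in DEL, 1.19% in Karpas299 and 3.29% in SUPM2, and SLPI was the 1 member to reach it, in DEL and SUPM2. No member reached 1 or higher (1.07% of genes in DEL, 2% in Karpas299, 3.3% in SUPM2).

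Over these 3 lines SLPI averaged -1.13 ± 0.37 (SD, n = 3 lines), and over all 4 lines -0.74 ± 0.84 (SD, n = 4 lines), lower in SP cells in 3 of 4 lines. Neither passed limma's test (adjusted p = 0.974 without SUDHL-1 and 0.918 over the 4 lines). The test of the difference itself, the interaction of population with SUDHL-1 on all 12 arrays, gave 1.58 with a standard error of 0.25. Its unadjusted p of 9.79e-05 in limma was the smallest, rank 1, of 18417 genes. Yet the adjusted p was 0.738, and 0 genes (0%) were called. The spread in this test came mainly from the replicate arrays of SUDHL-1, as the other lines had 1 array per population. The standard error and p-value therefore do not measure the spread between lines. At an unadjusted p under 0.05 there were 661 genes (3.59%), with SLPI as the 1 member among them. The pattern of SP below MP in the 3 lines with SUDHL-1 SP arrays wholly above its MP arrays was shared by 54 genes, 0.293% of those tested, and the mirror pattern by 83 genes (0.451%), no member among them. In SUDHL-1 the whole pattern lies at low signal, from 3.90 to 4.68, and the part that low signal plays in it was not tested.

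**Figure D3:**
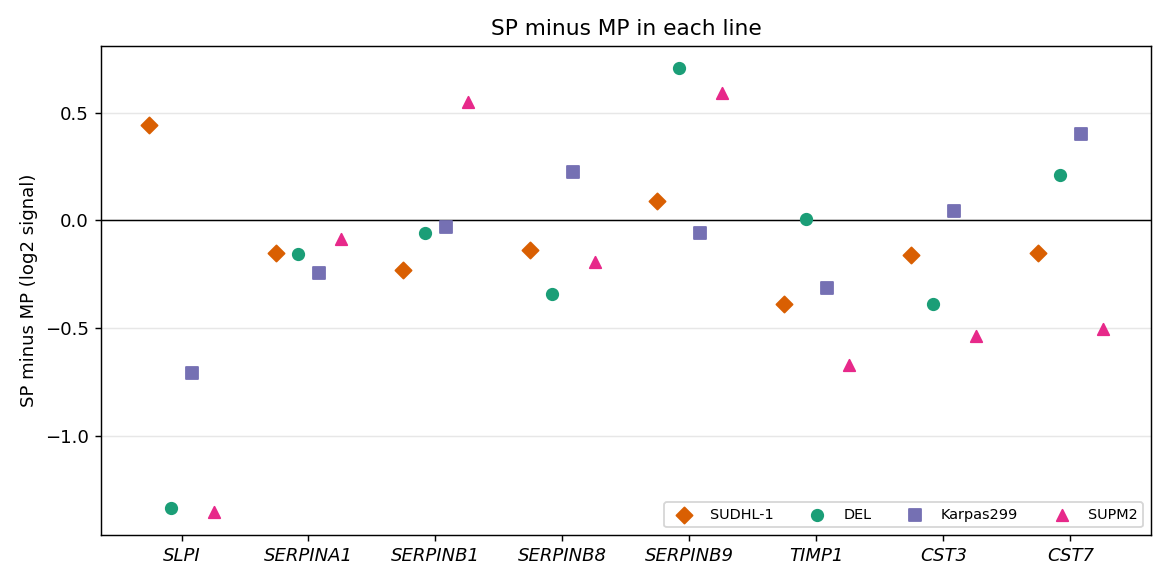
SP minus MP in log2 signal (vertical axis) for the 8 members (horizontal axis) in SUDHL-1 (means of 3 arrays each) and in DEL, Karpas299 and SUPM2 (1 array each). SLPI stands at 0.45 in SUDHL-1 and at -1.34, -0.71 and -1.36 in the other lines, and SERPINA1 lies slightly below 0 in each of them.

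SERPINA1, which encodes alpha-1-antitrypsin, had a signal at or above the 98.8th percentile of every array. On the SUDHL-1 arrays SERPINA1 read 11.32, 11.22 and 11.31 in SP cells and 11.29, 11.37 and 11.64 in MP cells. SP and MP cells of DEL read 12.17 and 12.33, those of Karpas299 12.03 and 12.28, and those of SUPM2 12.22 and 12.31. All SUDHL-1 arrays lay below all others, while DEL, Karpas299 and SUPM2 overlapped and their means spanned 0.11. SUDHL-1 minus the other lines was -0.87 (-0.92 after quantile normalization, -0.41 with each array centred on its median). SERPINA1 was the only member on the same side in 4 of 4 lines, with SP minus MP at -0.15 in SUDHL-1, -0.09 in SUPM2, -0.16 in DEL and -0.24 in Karpas299. The average of -0.16 ± 0.06 (SD, n = 4 lines) did not pass limma's test (adjusted p = 0.918). The SUDHL-1 difference was -0.05 without MP replicate 3, its highest MP array. For comparison, 5.65% of all genes were lower in SP cells in 4 of 4 lines. No member was higher in 4 of 4 lines, against 8.09% of all genes.

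SERPINB1, an inhibitor of elastase, cathepsin G and proteinase 3 that works in the cytoplasm of leukocytes, was highest in SUDHL-1, where SLPI was lowest. SERPINB1 in SUDHL-1 read 10.92, 10.69 and 10.94 in SP cells and 11.17, 10.97 and 11.11 in MP cells. DEL gave 9.33 for SP and 9.38 for MP cells, Karpas299 10.25 and 10.28, and SUPM2 9.08 and 8.53. No 2 lines overlapped, and the order was SUDHL-1, Karpas299, DEL and SUPM2. SUDHL-1 minus the other lines was 1.49, a 2.81-fold ratio (1.27 after quantile normalization), and 3.30% of all genes had a difference as high or higher. In SUDHL-1 the SP arrays lay wholly below the MP arrays, with 10.85 ± 0.14 in SP cells against 11.08 ± 0.10 in MP cells (SD, n = 3 each, difference -0.23, limma adjusted p = 1.00). The gap was narrow, with the highest SP array at 10.94 and the lowest MP array at 10.97. Of all genes, 3.42% had their SP arrays wholly below. SP minus MP was 0.55 in SUPM2, -0.06 in DEL and -0.03 in Karpas299. The 4-line average was 0.06 ± 0.34 (SD, n = 4 lines, limma adjusted p = 0.979).

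SERPINB9, the inhibitor of granzyme B, lay at low signal throughout, at the 21.1st to 36.2nd percentile of its arrays. In SUDHL-1 it read 4.01, 3.83 and 3.90 in SP cells and 3.88, 3.96 and 3.62 in MP cells. SP and MP cells of DEL read 4.98 and 4.27, those of Karpas299 4.95 and 5.01, and those of SUPM2 4.90 and 4.31. SUDHL-1 arrays lay below all others, with an average difference of -0.87, and the other 3 lines overlapped. After quantile normalization that difference was -0.40, and with each array centred -0.41. SP minus MP was 0.71 in DEL and 0.59 in SUPM2 but -0.06 in Karpas299 and 0.09 in SUDHL-1, an average of 0.33 ± 0.37 (SD, n = 4 lines, limma adjusted p = 0.918). GZMB itself, the protease that SERPINB9 holds in check, had line means of 10.05 in SUDHL-1, 11.89 in SUPM2, 9.77 in DEL and 11.56 in Karpas299. SERPINB1, SERPINB9 and SERPINB6 are next to each other on chromosome 6 in RefSeq. In the deposited log2 signals, the measured neighbours SERPINB1 and SERPINB9 stood on opposite sides of the other lines in SUDHL-1. By percentile, SERPINB9 in SUDHL-1 (21.1 to 26.3) overlapped DEL (24.2 to 35.3) and SUPM2 (23.4 to 32.5).

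SERPINB8, an inhibitor of the proprotein convertase furin, varied least between lines, with line means that spanned 0.58. SUDHL-1 values of SERPINB8 were 8.08, 8.13 and 7.74 in SP cells and 8.07, 7.71 and 8.58 in MP cells. DEL gave 7.30 for SP and 7.64 for MP cells, Karpas299 7.79 and 7.57, and SUPM2 7.71 and 7.91. Each line overlapped its neighbour in the order of levels, and SUDHL-1 minus the others was 0.40 (0.47 after quantile normalization, 0.86 with each array centred). SP minus MP averaged -0.11 ± 0.24 (SD, n = 4 lines, limma adjusted p = 0.934), and within SUDHL-1 the difference of -0.14 had a standard error of 0.24.

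TIMP1, which binds matrix metalloproteinases and the tetraspanin CD63, was at or above the 99.1st percentile of every array. For TIMP1 the SUDHL-1 arrays gave 11.87, 11.89 and 11.37 in SP cells and 11.98, 12.04 and 12.28 in MP cells. The SP and MP arrays both read 13.32 in DEL, and they read 12.90 and 13.22 in Karpas299 and 12.03 and 12.70 in SUPM2. DEL lay above Karpas299 and Karpas299 above SUPM2 with no overlap, while SUPM2 and SUDHL-1 overlapped. SUDHL-1 minus the other lines was -1.01 (-0.98 after quantile normalization, -0.55 with each array centred), and it ranged from -1.42 against DEL to -0.46 against SUPM2.

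In SUDHL-1 every SP array of TIMP1 lay below every MP array, as for 3.42% of all genes, with 11.71 ± 0.30 in SP cells against 12.10 ± 0.16 in MP cells (SD, n = 3 each). The difference was -0.39 with a standard error of 0.19 (limma adjusted p = 1.00). It was -0.13 without both arrays numbered 3, which held the lowest SP and the highest MP value. SP minus MP was -0.67 in SUPM2, 0.01 in DEL and -0.31 in Karpas299. The average over the 4 lines was -0.34 ± 0.28 (SD, n = 4 lines), with an unadjusted p of 0.0478 and an adjusted p of 0.918 in limma. TIMP1 was the 1 member of 8 with an unadjusted p under 0.05 in this comparison, against 4.91% of all genes.

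CST3, or cystatin C, is a secreted inhibitor of cysteine cathepsins made by most cells. CST3 read 8.99, 9.17 and 9.51 in SP cells and 9.49, 9.52 and 9.14 in MP cells in SUDHL-1. SP and MP cells of DEL read 10.55 and 10.94, those of Karpas299 10.64 and 10.59, and those of SUPM2 10.55 and 11.08. All SUDHL-1 arrays lay below all others, and the other lines overlapped, with means that spanned 0.20. SUDHL-1 minus the others was -1.42, a ratio of 0.373 (-1.64 after quantile normalization, -0.96 with each array centred). SP minus MP was -0.16 in SUDHL-1, -0.54 in SUPM2, -0.39 in DEL and 0.05 in Karpas299, an average of -0.26 ± 0.26 (SD, n = 4 lines, limma adjusted p = 0.918). With 1 array left out the SUDHL-1 difference ran from -0.30 without SP replicate 3 to -0.04 without SP replicate 1, and it was -0.43 without both arrays numbered 3.

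CST7, or cystatin F, is a leukocyte cystatin that restrains the cathepsins that activate granzymes. For CST7 the SUDHL-1 values were 9.16, 8.36 and 9.90 in SP cells and 9.42, 8.88 and 9.58 in MP cells. DEL gave 10.72 for SP and 10.51 for MP cells, Karpas299 10.79 and 10.38, and SUPM2 11.14 and 11.65. SUDHL-1 lay below all others and SUPM2 above all others, while DEL and Karpas299 overlapped. SUDHL-1 minus the others was -1.65, a ratio of 0.319 (-1.82 after quantile normalization). CST7 was lower in SP cells in 2 lines and higher in 2, with an average of -0.01 ± 0.40 (SD, n = 4 lines, limma adjusted p = 0.996), and its SP replicates in SUDHL-1 (9.14 ± 0.77, against 9.29 ± 0.36 in MP cells, SD, n = 3 each) were the most scattered of any member.

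In the SP against MP comparisons as a whole, limma called 0 of 18417 genes (0%) within SUDHL-1 and 0 (0%) over the 4 lines, so no member passed. At an unadjusted p under 0.05 there were 577 genes (3.13%) in SUDHL-1, with SLPI as the 1 member among them, and 904 genes over the 4 lines. With a robust trended variance these numbers were 577 and 47, and again 0 passed adjustment. The median SP minus MP of the 8 members was -0.15 in SUDHL-1 and -0.14 over the 4 lines, against -0.0002 and 0.02 over all genes.

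The wider families of inhibitors were read from gene lists. Of the 130 measured genes of inhibitor, protease and receptor families outside the members, 11 lay at least 1 below and 5 at least 1 above the other lines in SUDHL-1 with no overlap of arrays, next to 11.7% and 5.14% of all genes, and 0 passed limma's test between SP and MP cells in either comparison. After quantile normalization 8 lay lower and 5 higher, next to 6.65% and 6.53% of all genes. SERPINH1, LRP1 and LRP2 then no longer passed, and the median of the 130 genes was 0.03, against -0.36 as deposited. These shares of all genes apply to the counts of each list below. Among the other clade B serpins 0 of 8 lay lower and 2 lay higher in SUDHL-1. These were SERPINB4 and SERPINB3, near copies of each other known as squamous cell carcinoma antigens that may share probe signal. SERPINB4 had line means of 8.68 in SUDHL-1, 3.72 in SUPM2, 5.69 in DEL and 4.95 in Karpas299, and SERPINB3 had 7.57 in SUDHL-1, 3.69 in SUPM2, 4.25 in DEL and 5.56 in Karpas299. The difference of SUDHL-1 from the other lines was 3.89 for SERPINB4 and 3.07 for SERPINB3. The median over this list was 0.10 (0.36 after quantile normalization), and 5 of its 8 genes lay below the 25th percentile of each array. The share of all genes below it on every array was not counted, so nothing is read from this.

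Among the mainly secreted serpins of clades A and C to I, 1 of 18 lay lower and 0 higher in SUDHL-1, with a median of -0.47 (-0.03 after quantile normalization). The lower gene was SERPINH1, a collagen chaperone, at -1.11, named after its value was seen. SERPINE2, the inhibitor of thrombin and plasminogen activators, had line means of 2.97 in SUDHL-1, 3.74 in SUPM2, 6.92 in DEL and 3.48 in Karpas299. SERPING1, the complement C1 inhibitor, stood at 4.44 in SUDHL-1, 4.67 in SUPM2, 4.98 in DEL and 6.55 in Karpas299. Of 17 whey acidic, Kunitz and Kazal inhibitors 0 passed the limit in either direction, with a median of -0.17 (0.03 after quantile normalization). SPINK1, a trypsin inhibitor, ranged from 4.17 in Karpas299 to 10.14 in DEL, with 7.82 in SUDHL-1 and 4.90 in SUPM2. PI3, or elafin, another elastase inhibitor with a whey acidic protein domain, had a line mean of 3.86 in SUDHL-1 and of 4.24 to 4.61 in the other lines.

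TIMP4 had line means of 4.43 in SUDHL-1, 8.42 in SUPM2, 4.69 in DEL and 7.60 in Karpas299, an order unlike that of TIMP1, and TIMP2 stood at 7.40 in SUDHL-1, 5.90 in SUPM2, 7.94 in DEL and 7.59 in Karpas299. Of 15 other cystatins and stefins 1 lay lower in SUDHL-1, CSTA, a cytoplasmic cathepsin inhibitor with 3.04 in SUDHL-1, 8.27 in SUPM2, 4.40 in DEL and 4.47 in Karpas299. PLAT, which encodes tissue plasminogen activator, stood at 4.71 in SUDHL-1 and 6.69 in SUPM2, 9.74 in DEL and 6.09 in Karpas299. Its SP minus MP difference was alike in the 4 lines, 0.28 ± 0.01 (SD, n = 4 lines, limma unadjusted p = 0.0296, adjusted p = 0.918). Of the 22 matrix metalloproteinases 0 passed the limit between lines, and 9 lay below the 25th percentile of each array, again with no share of all genes counted.

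The proteases that these inhibitors block were read in the same way. Of 12 cysteine cathepsins and legumain, the targets of the cystatins, 4 lay lower and 1 higher in SUDHL-1 (11.7% and 5.14% of all genes). The median was -1.25. After quantile normalization it was -0.79, with the same counts (6.65% and 6.53% of all genes). The lower genes were CTSH, CTSB, LGMN and CTSW (-3.44, -2.54, -1.98 and -1.66), and the higher one was CTSV at 1.52, CTSW and CTSV being named after their values were seen. CTSH had line means of 5.12 in SUDHL-1, 8.05 in SUPM2, 7.94 in DEL and 9.70 in Karpas299. CTSB stood at 8.01 in SUDHL-1, 10.45 in SUPM2, 11.05 in DEL and 10.15 in Karpas299, and LGMN, or legumain, at 3.65 in SUDHL-1, 5.43 in SUPM2, 6.87 in DEL and 4.60 in Karpas299. ELANE, the neutrophil elastase that SLPI, SERPINA1 and SERPINB1 inhibit, varied little, with 6.10 in SUDHL-1, against 6.25 to 6.53 elsewhere, and 0 of 7 neutrophil and mast cell proteases passed the limit. GZMA ran from 3.75 in SUPM2 and 8.48 in DEL to 10.16 in both SUDHL-1 and Karpas299.

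Receptors that clear inhibitors or bind them were also read. Of 6 measured, 3 lay lower and 1 higher in SUDHL-1 (11.7% and 5.14% of all genes). The lower ones were the endocytic receptors VLDLR, LRP1 and LRP2 (-3.59, -1.41 and -1.13), and CD44 was higher (2.76). After quantile normalization 1 lay lower and 1 higher (6.65% and 6.53% of all genes), with LRP1 at -0.95 and LRP2 at -0.74. The gap of LRP2 was widest against SUPM2, whose line mean was 5.79. SUDHL-1 had 3.27, next to 3.64 for DEL and 3.75 for Karpas299. LRP1 takes up complexes of serpins with proteases. Among 11 ADAM and ADAMTS proteases ADAM15 lay lower (-1.88) and ADAM28 higher (3.48).

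**Figure D4:**
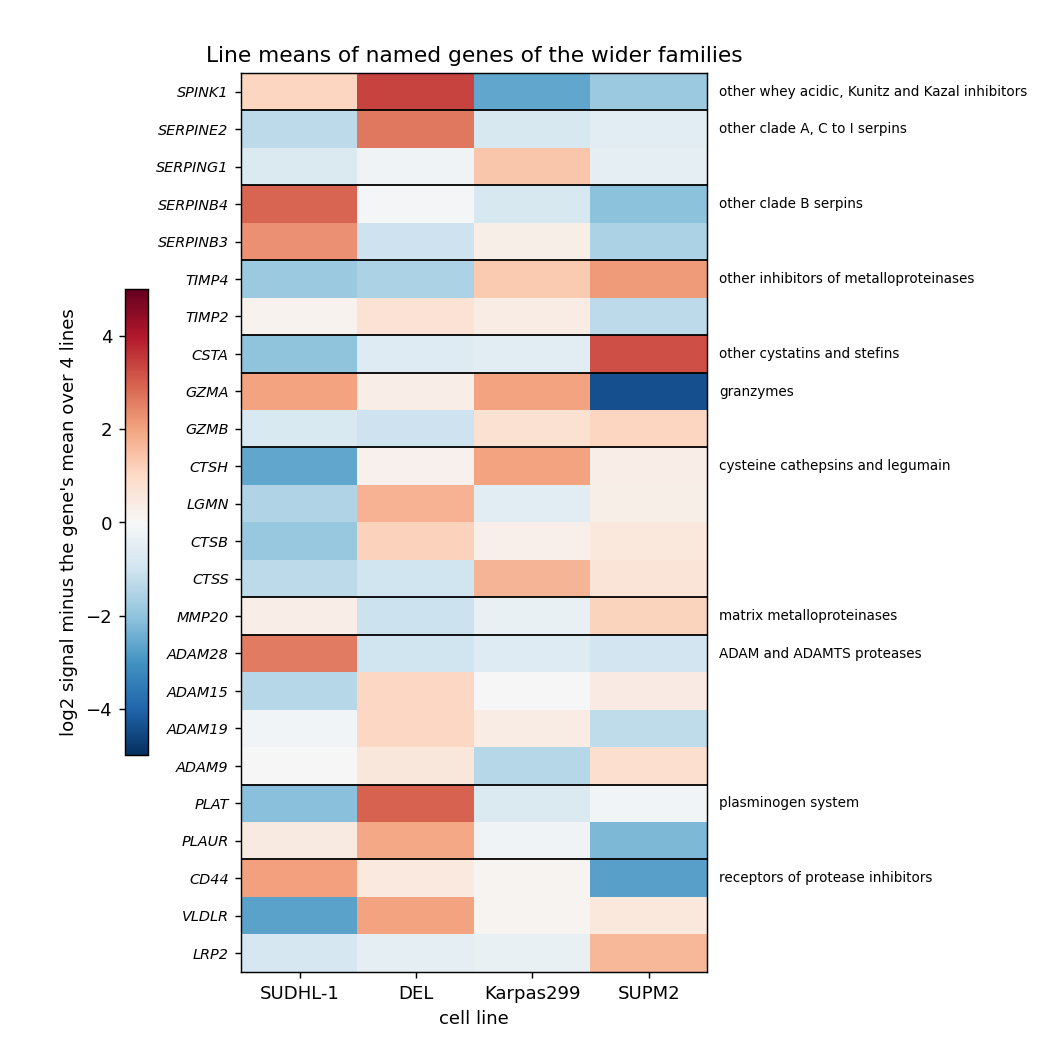
Line means of the 24 named genes of the wider inhibitor, protease and receptor families whose line means span at least 2, as log2 signal minus the gene's own mean over the 4 lines (colour), with lines as columns and list names at the right. SERPINB4, SERPINB3 and ADAM28 are highest in SUDHL-1, and CTSH, CTSB, LGMN and VLDLR are lowest there.

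The genes with the pattern most like each member were sought for the 3 members whose line means spanned at least 2, a span reached by 10.8% of all genes, by Pearson correlation of log2 signals. These correlations describe arrays that share lines, and arrays of 1 line are not independent. Over the 12 arrays the closest to SLPI were GUCD1 (r = 0.986), COL19A1 (0.983) and CD320 (0.982), and 518 genes had an r above 0.9. Over the 6 arrays of DEL, Karpas299 and SUPM2, they were ADCY3 (0.998), SANBR (0.997) and ZMIZ2 (0.996), so these 2 sets of 3 share no gene. Over these 6 arrays 503 genes had an r above 0.9. Over all 12 arrays the r with SLPI was 0.64 for ADCY3, -0.66 for SANBR and 0.96 for ZMIZ2, so the likeness of ADCY3 and SANBR was weaker or of opposite sign once SUDHL-1 was included.

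For SERPINB1 the closest genes over 12 arrays were PPP5C (r = 0.988), FGB (0.981) and SAE1 (0.979), and over the 6 arrays of the other lines PPP5C (0.999), TMEM160 (0.998) and CEP72 (0.998). Over all 12 arrays the r with SERPINB1 was -0.09 for TMEM160 and 0.58 for CEP72. Genes with an r above 0.9 numbered 280 over 12 arrays and 440 over 6. PPP5C, a protein phosphatase gene, led both sets, with line means of 9.39 in SUDHL-1, 6.81 in SUPM2, 7.46 in DEL and 8.61 in Karpas299. For CST7 the closest genes were FHDC1 (0.978), PHACTR3 (0.971) and BSX (0.968) over 12 arrays and FAAH (0.996), ZNF550 (0.994) and LRRC56 (0.993) over 6. Over all 12 arrays the r with CST7 was 0.93 for FAAH, 0.17 for ZNF550 and 0.96 for LRRC56. Here 723 genes had an r above 0.9 over 12 arrays and 410 over 6.

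SLPI and SERPINA1 are also known from epithelium, liver and myeloid cells, so markers of these cells were read beside them. Of 7 epithelial markers, KRT18 was the 1 gene above the array median on every array of each line, EPCAM lay at 2.32 to 2.89 in SUDHL-1, against 2.91 to 3.24 elsewhere, and the list averaged 3.77 to 4.20 on SUDHL-1 arrays and 4.39 to 4.79 on the others. The 6 neutrophil markers averaged 4.79 to 5.41 in SUDHL-1, against 4.98 to 5.40 elsewhere. Of these, 3 lay above the array median on every array of SUDHL-1 and 2 in each other line. MPO lay at 3.53 to 3.91 in SUDHL-1, against 3.87 to 4.14 elsewhere. ELANE lay at 5.84 to 6.35 against 6.21 to 6.71, and PRTN3 at 5.57 to 6.12 against 6.01 to 6.36. AZU1 lay at 5.32 to 6.11 against 5.51 to 6.23, and CTSG at 3.29 to 4.30 against 4.11 to 4.90. CSF3R went the other way, at 4.52 to 5.67 in SUDHL-1 against 3.97 to 4.35 in DEL and 4.03 to 4.27 in SUPM2. It overlapped Karpas299 (4.47 to 5.39). The monocyte markers averaged 5.17 to 5.45 in SUDHL-1, against 5.83 to 6.91 elsewhere. Of 4 measured, 1 lay above the array median on every array of SUDHL-1 and 2 in each other line. CSF1R lay at 4.90 to 5.55 in SUDHL-1 against 7.45 to 8.59 in the others. CD68 lay at 8.16 to 9.05 in SUDHL-1 against 8.92 to 10.25 in the others. LYZ was at most 3.25 on any array, and CD14 lay at 4.54 to 4.74 in SUDHL-1 against 4.28 to 6.31 in the others. The liver markers averaged 5.85 to 6.06 in SUDHL-1, against 5.23 to 5.95 elsewhere. Within that list ALB, like SLPI, was lowest in SUDHL-1, at 5.40 to 5.93 against 6.49 to 8.81 in the others, and FGB, a fibrinogen chain, was highest there, at 10.57 to 11.77 in SUDHL-1, 7.42 to 9.20 in Karpas299, 5.28 to 5.75 in DEL and 3.03 to 3.62 in SUPM2. The B-cell markers averaged 4.12 to 4.53 in SUDHL-1, against 4.32 to 5.06 elsewhere, and the NK-cell markers averaged 3.55 to 3.86 in SUDHL-1, against 3.90 to 4.27 elsewhere. The part of such differences in the levels of the inhibitors was not tested. All marker levels are as deposited, with the lower array medians of SUDHL-1, and were not read after quantile normalization.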

How the data were processed

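The deposited values are log2 signals per probe set that the authors made; the submitters' processing notes name RMA. No source used here states if all 12 arrays went through 1 normalization. Per the labels' protocols, RNA was amplified with a NuGEN Ovation Pico kit before biotin labelling. Of 33297 probe sets, 19460 had 1 gene symbol in the platform annotation, 1754 several and 12083 none, and 19429 of the named ones matched RefSeq by Entrez identifier. The probe set with the highest mean stood for a gene with several (769 genes), which left 18417 genes. All 12 columns were used.

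The fits of SP against MP used limma 3.58.1 (R 4.3.3): within SUDHL-1 (6 arrays), over 1 difference per line (4 lines), and as an interaction on the 12 arrays, blocked by cell line. P-values were two-sided and Benjamini-Hochberg adjusted over all genes (threshold 0.05). A line mean is the mean of the SP and MP means. The fits were tested on simulated data whose noise followed the spread between SUDHL-1 arrays. Apart from planted differences, SP minus MP had no true variation between lines there, so that spread was not checked. Precision rests on the number of arrays and, in the fit over the 4 lines, on the number of lines. The members and gene lists were chosen with earlier results of these data known. From each list, the text names genes among the 4 with the widest span of line means and the 2 of smallest p over the 4 lines, and the 3 genes most like each member with a span of 2. Marker genes were named where their level is given, and genes outside this rule are marked so. Alternatives were quantile normalization, median centring, leaving out dim genes, averaging probe sets, a robust trended variance, the replicate block, and leaving out arrays or lines. Leaving out both SUDHL-1 arrays numbered 3 was added after the data were seen.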

Additional observations from a re-analysis of the deposited data

Results flagged for a closer look

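SLPI was singled out because its SP minus MP difference ran in opposite directions, with SUDHL-1 SP arrays all above its MP arrays (difference 0.45) and the SP array below the MP array in DEL, Karpas299 and SUPM2 (-1.34, -0.71 and -1.36). The spread in the interaction test came mainly from SUDHL-1 arrays, so its p-value does not measure the spread between lines. The interaction was 1.58 (limma unadjusted p = 9.79e-05, adjusted p = 0.738), so the difference between lines failed the correction over all genes. Across the alternatives that left out 1 array it was 1.48 to 1.68, with adjusted p of 0.711 to 1.00.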

How the results depend on the processing

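None of the alternatives run called any gene between SP and MP cells within SUDHL-1 or over the 4 lines (0 genes each), nor did those run for the interaction, which were quantile normalization, the robust trended variance and leaving out SUDHL-1 arrays. The replicate numbers did not pair the SP and MP arrays (correlations of same-numbered deviations -0.0037, -0.08 and -0.13), and with the replicate block 0 genes were called, as without it. The difference of SLPI in SUDHL-1 from the other lines kept its sign in all settings, at -4.61 after quantile normalization, -4.36 with arrays centred on their medians, -4.03 on SP arrays, -5.61 on MP arrays, -4.60 without DEL, -3.94 without Karpas299 and -5.92 without SUPM2. With 1 SUDHL-1 array left out it was -4.87 to -4.77. Members past the limit between lines numbered 3 with arrays centred on their medians, 6 on SP arrays, 5 without SUPM2 and 4 in the other settings. With fewer arrays an overlap is less likely for any gene. The share of all genes past the limit is given only as deposited (11.7% lower, 5.14% higher) and after quantile normalization (6.65% and 6.53%). Nothing is read from these counts. The 4-line SP minus MP of SLPI was -1.13 without SUDHL-1. Differences near 0 changed sign as follows. In SUDHL-1, without both arrays numbered 3, SERPINB8 stood at 0.22 and SERPINB9 at -0.0014. With 1 array left out, CST7 ran from -0.53 to 0.24, SERPINB8 from -0.34 to 0.10 and SERPINB9 from -0.0098 to 0.16. Over the 4 lines, CST7 stood at 0.036 without SUDHL-1 and 0.15 without SUPM2, and from -0.11 to 0.087 with 1 array left out, and SERPINB1 at -0.11 without SUPM2. The other 3 lines had 1 array per population, which limits the precision of their differences.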
